A study of Mus musculus with 99 samples.

Results

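The Sox, Fox and Klf genes are 3 families of transcription factors, and their mRNA levels were compared between mouse cochlear outer hair cells (OHCs) and OHCs that carry ectopic Tbx2. Members were all rows of the count table whose symbol is Sox plus digits, Fox plus 1 letter plus digits or Klf plus digits, less 1 further Sox symbol and symbols ending in os or ot, which gave 79 of 55291 genes: 18 Sox, 44 Fox and 17 Klf. The first group held 32 single wild-type OHCs taken at postnatal day 30 from C57BL/6 mice of genotype Slc26a5-CreER/+; Ai9/+, in which Ai9 is a tdTomato reporter. The second held 67 single cells at postnatal day 42 from C57BL/6 mice of genotype Slc26a5-CreER/+; Rosa26Tbx2/+, called converted inner hair cells (cIHCs) by the submitters; Slc26a5 is the gene of the OHC motor protein, so Cre acts in OHCs, and Tbx2 comes from the Rosa26 locus. Both groups carry the CreER allele, and the cells were picked by hand for tdTomato according to the design text, although the genotype given for the cIHCs names no reporter. Age and Tbx2 differ together between the groups and cannot be told apart. The groups also differ in sex-linked reads, given below. The protocol text of all samples speaks of endogenous IHCs and iOHCs; groups here follow the titles. A further set of OHCs from an earlier study was not analysed here. Because no label names an animal, a group was taken as 1 sample. No difference below has a replicate check or a test. Intervals of levels and ratios cover counting error only. They may be too narrow even for that, since amplified reads carry no molecular identifier. Intervals of shares of cells treat the cells as independent draws and do not cover differences between animals.

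Sox proteins bind DNA through an HMG box, which bends the helix. Fox proteins use a forkhead domain, and their FoxO branch is held out of the nucleus when insulin or IGF signalling through AKT is active. Klf proteins bind GC-rich sites through zinc fingers, and several of them (Klf2, Klf4, Klf6, Klf10) are induced quickly by stress, flow or growth factors. In the inner ear Sox4 and Sox11 are known from hair cell development, and Sox9 and Sox10 from supporting cells and glia.

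The total count of a cell lay between 5656512 and 9287413 in OHCs and between 4677682 and 13792672 in cIHCs. A median of 6068.5 genes had reads in an OHC and 8546 in a cIHC, so shares of cells with reads of low genes are not directly comparable. All 8 hair cell markers were present in both groups, summing to 7205 CPM (the count divided by the total and scaled to 1000000) in pooled OHCs and 5555 CPM in pooled cIHCs. Tbx2 held 3 counts in all OHCs together and a median of 583.9 CPM in cIHCs. Of 43 marker genes of other cell types, 39 had reads in fewer than 50% of the cells of each group (all but Pdgfra, C1qb, Nefm and Col1a1); these summed to 107.5 CPM in OHCs against 59.3 CPM in cIHCs, and 7 OHCs and 9 cIHCs reached 100 CPM of them. Over all 43 markers the order of the groups was the opposite, 287.3 CPM in OHCs and 419.3 CPM in pooled cIHCs: neuron markers summed to 19.3 and 187.3 CPM, macrophage markers to 6.38 and 49.8 CPM, and mesenchyme markers to 202.1 and 146.6 CPM. The part of these reads in the levels below was not tested. Xist reads at 10 CPM were present in 4 OHCs and 55 cIHCs, and Y-linked reads in 24 OHCs and 12 cIHCs. The other 4 OHCs reached that level in neither. By these reads the groups differ in their mix of sexes, along with age and Tbx2. The part of sex in the levels below was not tested.

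The summed level of the 79 members was close in both groups, while its makeup was not. Summed over all 79 members, a median OHC had 1155 CPM (range 396.8 to 1623) and a median cIHC 1122 CPM (483.1 to 1685). Sox reads had medians of 43.5 CPM in OHCs against 111.7 CPM in cIHCs. Fox reads had medians of 602.1 and 461.3 CPM. Klf reads had medians of 357.9 and 427.2 CPM. The ranges of all 3 sums overlapped between the groups.

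No read of 23 members was found in any of the 99 cells, among them 14 Fox and 8 Sox genes. Another 35 had reads but stayed under 10 CPM in both pooled groups, which left 21 members: 3 Sox, 7 Fox and 11 Klf. Of these, 8 passed 10 CPM in 1 group only and so had to differ to some degree. Pooled levels were compared as the log2 ratio of cIHC over OHC. At 2-fold or more, 7 of the 21 were higher in cIHCs, against 26.3% of all 10041 genes with 10 CPM or more in 1 or both groups, and 6 of 21 were lower, against 14.3% of those genes. The higher ones were Sox4, Klf6, Klf13, Klf15, Foxk2, Klf12 and Klf7, and the lower ones Klf2, Klf3, Foxo3, Foxn3, Klf10 and Foxj2. With 7 and 6 genes, both shares (33.3% and 28.6%) rest on few members. The median log2 ratio of the 21 was 0.16, beside 0.25 over all genes that passed the same level. Scaling by TMM (trimmed mean of M-values) lowered the all-gene median by 0.22; Sox4, Klf6 and Klf13 were then still counted as 2-fold higher, Foxk2, Klf12 and Klf7 were under 2-fold, Klf15 was under 10 CPM, and the 6 lower genes stayed. In no member did all cells of one group lie above all cells of the other, which was the case for 0.0797% of all genes in the direction of cIHCs and 0.0896% in the direction of OHCs.

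**Figure D1:**
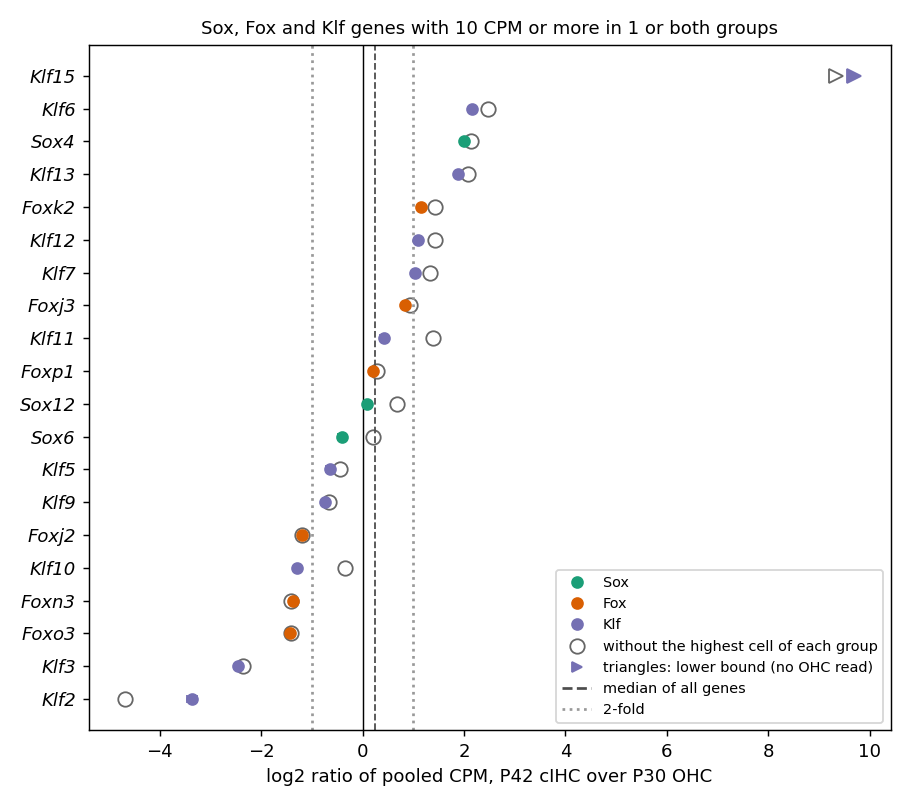
Log2 ratio of pooled CPM (x axis) for 20 members with 10 CPM or more in 1 or both groups; filled points carry exact 95% counting intervals, mostly smaller than the point, and open symbols show the ratio without the highest cell of each group. Sox4, Klf6 and Klf13 lie near or above 1.89 with and without that cell, whereas Klf10 and Klf11 shift by about 1 unit.

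Sequences just before the transcription start are shown for Sox4, Klf6 and Klf13, the 3 members counted as 2-fold higher under TMM and median-of-ratios scaling too, and for Foxo3, the lower FoxO gene. They are RefSeq promoters on GRCm38.p6, cut off before the first base in an exon of any GENCODE M21 gene, and they end 14, 7, 0 and 60 bases before the RefSeq start. Each reads 5′ to 3′ on the gene's strand. Capitals mark GC boxes (GGGCGG, a Sp and Klf type site) and CCAAT boxes (CCAAT) on either strand; no matches overlap.
Sox4 (chr13:28953714-28953949, minus strand): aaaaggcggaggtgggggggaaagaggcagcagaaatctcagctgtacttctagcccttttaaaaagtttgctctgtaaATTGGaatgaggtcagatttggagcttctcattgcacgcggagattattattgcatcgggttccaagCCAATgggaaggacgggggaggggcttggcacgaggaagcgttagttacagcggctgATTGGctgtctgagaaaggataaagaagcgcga
Klf6 (chr13:5861239-5861481, plus strand): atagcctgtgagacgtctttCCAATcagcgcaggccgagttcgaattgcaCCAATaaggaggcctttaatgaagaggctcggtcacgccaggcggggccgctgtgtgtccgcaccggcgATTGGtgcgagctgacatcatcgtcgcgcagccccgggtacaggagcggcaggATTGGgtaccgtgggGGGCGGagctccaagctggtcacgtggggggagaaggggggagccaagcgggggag
Klf13 (chr7:63938916-63939165, minus strand): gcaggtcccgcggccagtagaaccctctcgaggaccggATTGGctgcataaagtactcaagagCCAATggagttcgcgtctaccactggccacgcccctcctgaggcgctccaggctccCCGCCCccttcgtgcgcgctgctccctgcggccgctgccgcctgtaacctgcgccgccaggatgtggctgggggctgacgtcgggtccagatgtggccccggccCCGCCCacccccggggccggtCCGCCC
Foxo3 (chr10:42276756-42276945, minus strand): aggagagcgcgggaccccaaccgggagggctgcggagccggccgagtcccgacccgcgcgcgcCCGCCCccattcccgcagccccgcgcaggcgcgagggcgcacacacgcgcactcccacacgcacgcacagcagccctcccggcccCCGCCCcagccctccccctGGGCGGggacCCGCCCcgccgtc
The Sox4 stretch held 3 CCAAT boxes and no GC box. Klf6 held 4 CCAAT boxes and 1 GC box, Klf13 held 2 and 3, and Foxo3 held no CCAAT box and 4 GC boxes.

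Over the 250 bases before the start, RefSeq promoters were matched for 53 of the 79 members. A GC box was present for 38 of the 53 (71.7%), against 35.4% of all 27025 genes, and the members' windows also had a higher GC content, with a median of 61.4% against 52.4%. The CCAAT box, a motif added after the sequences had been seen, was present for 28 of 53, or 52.8%, against 37.5% of all genes. Of members with a window, 5 of the 7 that were 2-fold higher and 0 of the 5 that were 2-fold lower held one, as did 5 of the 6 within 2-fold, some of which have several windows (13 in all). A T-box half-site (GGTGTGA), the core that Tbx2 type factors bind, was found for 1 of 53 members, against 3.84% of all genes, and for 0 of the 7 higher genes. A forkhead core (TGTTTAC) was found for 3 of 53 members, against 3.54% of genes. The CRE (TGACGTCA) was found for 1 member, the AP-1 site (TGANTCA) for 2 and the CArG box for 2, against 1.77%, 7.82% and 1.62% of genes. Both strands were searched, and these are matches of letters only.

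Sox4, a SoxC factor that acts as a transcriptional activator in immature cells, had the highest level in cIHCs among the 18 Sox members. It lies at chr13:28948919-28953713. The level per cell ran from 0 to 208.2 CPM in OHCs (median 1.79) and from 0 to 485.6 CPM in cIHCs, with a median of 75.4. Reads were present in 17 of 32 OHCs and 63 of 67 cIHCs, and 13 cIHCs lay above the highest OHC. Pooled levels were 32.2 CPM (exact Poisson 95% interval 31.5 to 32.97) and 128.6 CPM (127.7 to 129.6), a log2 ratio of 2.00 (1.96 to 2.03), or 1.75 relative to the all-gene median. Of the 2144 pairs of 1 cIHC and 1 OHC, the cIHC was higher in 77.2% and the OHC in 20.0%. The ratio was 1.61 among cells with Y-linked reads but 0.05 among cells with Xist reads, a set with 4 OHCs only. A share of 54.6% of its exon bases overlaps the noncoding gene Gm26735 on the opposite strand (GENCODE M21), and whether the counting used strand is not given in the sources used here. The count table has no row under the symbol Gm26735, so its level cannot be given. The SoxC partner Sox11 had 3 counts in OHCs and 7 in cIHCs.

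Sox12, also a SoxC gene, did not differ by 2-fold. Its pooled levels were 17.1 CPM in OHCs against 18.05 CPM in cIHCs, a log2 ratio of 0.08 that turned to -0.11 under TMM. Reads were present in 17 of 32 OHCs and 41 of 67 cIHCs, and 1 OHC held 43.4% of the OHC counts. Sox6, a SoxD factor without an activation domain of its own, had 12.1 and 9.09 CPM. A share of 48.9% of its OHC counts came from the OHC with the most reads of other cell types, 2359 CPM over the 39 markers, and without the highest cells the log2 ratio of -0.41 became 0.20.

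The other 15 Sox members stayed under 10 CPM in both groups, and 8 of them had no read. Sox9, a supporting cell factor, had 4 counts in OHCs against 2.75 CPM in cIHCs, of which 1 cell held 88.8%; that cell also held 1526 CPM of the markers of other cell types, the most of any cIHC. Sox10, a glial factor, had 148 counts in OHCs, 98.6% of them in 1 cell, and 1 count in cIHCs. Sox30, known from spermatids, had 4.44 CPM in OHCs, with 93.2% of the counts in 1 cell. Sox5 had 0.546 CPM in cIHCs from 4 cells and no read in OHCs. Sox17, an endothelial factor, had no read in any cell, and Sox18 had 4 counts.

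Klf6, at chr13:5861482-5870394, had the highest pooled level per length of any member in cIHCs. It is an activator that responds early to injury in several tissues. Its level per cell ran from 0 to 225.05 CPM in OHCs (median 0) and from 0 to 499.4 CPM in cIHCs, with a median of 114.8. Reads were found in 11 of 32 OHCs (34.4%, exact Clopper-Pearson 95% interval 18.6 to 53.2) and in 59 of 67 cIHCs (88.1%, 77.8 to 94.7), or in 31.03% and 89.4% after thinning each cell to 5770000 reads. Most cIHCs were thus above most OHCs, and 11 cIHCs exceeded the highest OHC. Pooled levels were 29.9 CPM (29.2 to 30.6) and 133.7 CPM (132.7 to 134.6), a log2 ratio of 2.16 (2.13 to 2.196), or 1.91 relative to all genes. It was 1.65 among cells with Y-linked reads.

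Klf13, a repressor of the Klf9 subgroup at chr7:63886351-63938915, showed the same order of groups. Cells ran from 0 to 145.2 CPM in OHCs (median 0.25) and from 0 to 377.5 CPM in cIHCs (median 50.8). Pooled levels were 17.0 and 62.9 CPM, a log2 ratio of 1.89 (1.84 to 1.94), and the cIHC was higher in 80.8% of pairs, the largest share among the 21 members. Its ratio was 1.33 among cells with Y-linked reads and 2.56 among cells with Xist reads.

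Klf12 and Klf7 were also 2-fold higher, but by a margin that scaling removed. Klf12, a repressor that recruits CtBP, had medians of 0 CPM in OHCs (highest cell 240.4) and 26.2 CPM in cIHCs (highest cell 276.7). Reads of it were present in 14 of 32 OHCs and 61 of 67 cIHCs. Its log2 ratio of pooled levels was 1.09, or 0.84 relative to all genes. Of its OHC counts, 42.4% came from 1 cell. Leaving out both top cells, 1 per group, gave 1.42. Klf7, which is known from sensory neurons, had medians of 0 CPM in OHCs (highest cell 206.9) and 38.6 CPM in cIHCs (highest cell 258.5). The log2 ratio of 1.03 was 0.79 relative to all genes and -0.57 among cells with Xist reads, and 39.3% of its exon bases overlap Gm26649 on the other strand. Gm26649, too, has no row under that symbol in the count table.

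Klf15, a regulator of glucose and amino acid metabolism that glucocorticoids induce, had reads in 0 of 32 OHCs, and the limit set by 3 in place of 0 is 9.38% of cells with reads, which says nothing of expression below detection. In cIHCs 17 of 67 cells had reads, 25.4% (15.5 to 37.5), and 9 cells reached 10 CPM, with a highest value of 135.8 CPM. The pooled cIHC level of 10.3 CPM (9.98 to 10.5) was at least 827-fold higher than the OHC floor of 3 counts over the group, a log2 ratio of at least 9.69. Klf8, a repressor close to Klf3 and Klf12, had 1 count in OHCs and 5.36 CPM in cIHCs from 12 cells. Its log2 ratio of 10.34 (7.86 to 15.65) uses that count as it stands, so it cannot be set beside the ratio of Klf15, which uses 3 counts. Most cIHCs had no read of either gene.

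Klf9, another Klf induced by steroid and thyroid hormones, was the member with the highest level per length in OHCs. Its level per cell ran from 0 to 520.9 CPM in OHCs (median 139.4) and from 0 to 304.0 CPM in cIHCs, with a median of 91.5. The pooled log2 ratio of -0.75 (-0.77 to -0.73) stayed within 2-fold under every alternative, from -0.95 to -0.46, and the cIHC was higher in 40.6% of pairs. Per kilobase of exon, Klf9 stood at 35.2 CPM in OHCs, against 6.81 CPM for Klf6 and 2.26 CPM for Klf13. In cIHCs the same 3 genes had 20.9, 30.4 and 8.36 CPM per kilobase. Within single cells, Klf6 exceeded Klf9 per kilobase in 3 of 32 OHCs (9.38%, 1.98 to 25.0) and in 40 of 67 cIHCs (59.7%, 47.004 to 71.5), a comparison chosen after the levels were seen and free of any scaling between cells. For Sox4 against Klf9 the numbers were 6 of 32 and 35 of 67.

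**Figure D2:**
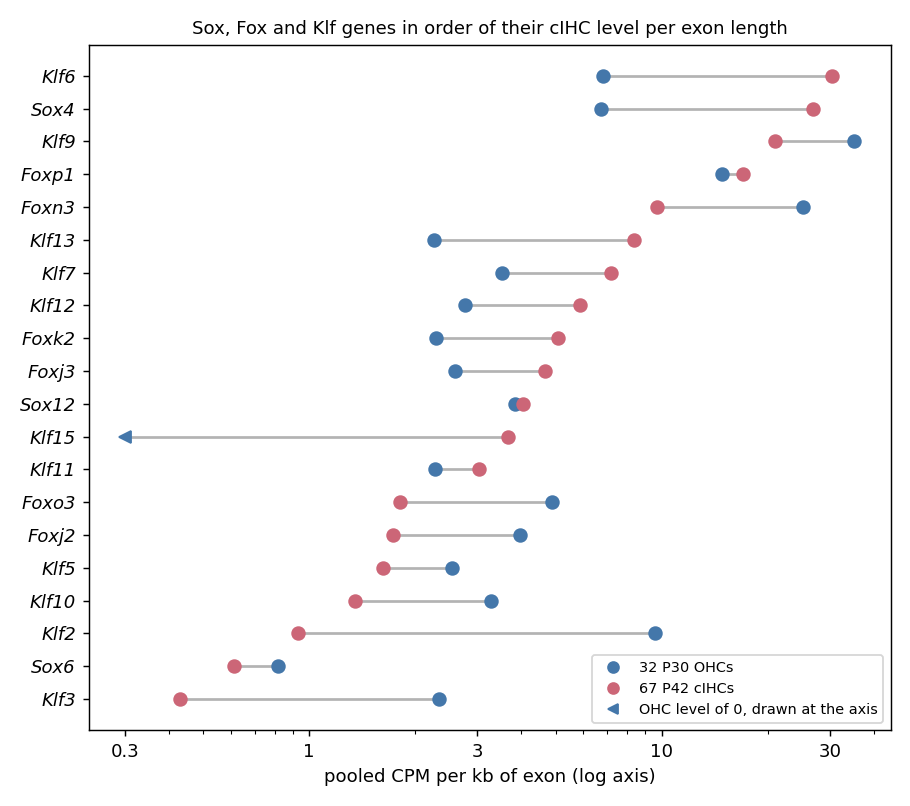
Pooled CPM per kilobase of exon (log axis) of 20 members with 10 CPM or more, in OHCs (blue) and cIHCs (red), joined by a line and sorted by the cIHC level; exon length is the union of GENCODE M21 exons. Klf9 leads in OHCs at 35.2 and Klf6 in cIHCs at 30.4.

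Klf3, Klf2 and Klf10 were 2-fold lower in cIHCs, each with reads in at most 13 cells of a group. Klf3, a CtBP-binding repressor, had a median of 0 CPM in both groups and highest cells of 363.7 CPM in OHCs against 127.0 CPM in cIHCs. It had reads in 13 of 32 OHCs and 13 of 67 cIHCs, and pooled levels of 26.3 and 4.82 CPM. Its log2 ratio of -2.45 was -2.36 without the highest cells, -0.13 among cells with Y-linked reads and -3.50 among cells with Xist reads. Klf2, best known as a flow-induced factor of endothelium, had 17.7 and 1.72 CPM, with reads in 5 OHCs and 4 cIHCs and 59.6% of the OHC counts in 1 cell. That OHC held 0 CPM of the 39 markers of other cell types. The log2 ratio of Klf2 was -3.37, or 4.07 among cells with Xist reads. That set has 4 OHCs only, and 1 of its cIHCs held 83.6% of all cIHC counts of Klf2. A sum of 0 in the 4 OHCs would enter as 3 counts, so the 4.07 may be a bound. Klf10, induced by TGF-beta, had 13.7 and 5.62 CPM with 61.6% of the OHC counts in 1 cell, and without the highest cells its log2 ratio of -1.29 became -0.35. The Klf10 ratio was -0.82 among cells with Y-linked reads and -0.14 among cells with Xist reads.

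Klf5 and Klf11 lay within 2-fold. Klf5 had 13.2 CPM in OHCs against 8.44 CPM in cIHCs, with reads in 8 of 32 and 30 of 67 cells. Klf11 had 9.86 and 13.1 CPM, with 54.7% of the OHC counts in 1 cell, and its log2 ratio of 0.41 was 1.38 without the highest cells. Klf4, an early response factor, had 3 OHCs and 4 cIHCs with reads and pooled levels of 2.58 and 1.20 CPM, and 81.8% of its OHC counts came from the OHC with the most reads of other cell types. The same cell held all 485 counts of Klf17. Klf1, a factor of red blood cells, had no read in OHCs and 1.83 CPM in cIHCs from 4 cells, while the 4 red blood cell markers summed to 4.21 CPM in OHCs against 5.52 CPM in cIHCs. The part of other cell types in these levels was not tested.

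Foxn3, a forkhead repressor linked to cell cycle checkpoints, was the Fox gene with the largest difference in pooled CPM. It lies at chr12:99190078-99563582. OHCs ran from 0 to 538.0 CPM with a median of 270.6, and cIHCs from 0 to 405.6 CPM with a median of 94.98. Both groups had reads in nearly every cell, 31 of 32 and 65 of 67, and 7 OHCs lay above the highest cIHC. Pooled levels were 288.8 CPM (286.7 to 291.0) and 111.8 CPM (110.9 to 112.7), a log2 ratio of -1.37 (-1.38 to -1.35), or -1.62 relative to all genes. In 84.3% of pairs the OHC was higher. The ratio was -1.54 among cells with Y-linked reads and -0.86 among cells with Xist reads.

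Foxp1, a forkhead repressor that is widely expressed in neurons, had reads in all 99 cells and was the only member of which this holds. Its cells ran from 5.86 to 738.7 CPM in OHCs (median 172.7) and from 16.1 to 552.3 CPM in cIHCs (median 233.9). Pooled levels were 203.5 and 234.2 CPM, a log2 ratio of 0.20, close to the all-gene median. Foxn3 thus exceeded Foxp1 per kilobase in 24 of 32 OHCs (75.0%, 56.6 to 88.5) and in 18 of 67 cIHCs (26.9%, 16.8 to 39.1). This pair, too, was chosen after the levels were seen.

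Foxo3, at chr10:42181841-42276755, was the FoxO gene with the highest level and was lower in cIHCs. FoxO3 drives genes of stress resistance, autophagy and growth arrest. Cells ran from 0 to 195.4 CPM in OHCs (median 7.03) and from 0 to 139.7 CPM in cIHCs (median 1.58), with reads in 27 of 32 and 58 of 67 cells. Pooled levels were 36.9 and 13.7 CPM, a log2 ratio of -1.43 (-1.47 to -1.38). The direction did not hold within cells split by sex-linked reads: the ratio was 0.33 among cells with Y-linked reads and 1.599 among cells with Xist reads. The set with Xist reads has 4 OHCs only. Another 4 OHCs had neither kind of read at 10 CPM and fell in neither set. Among them was the OHC with the most Foxo3 counts, 15.6% of those in OHCs. Foxo1 had 9.64 and 8.09 CPM, and Foxo4 and Foxo6 had under 1 CPM in both groups.

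Around FoxO, 11 of 12 upstream pathway genes and 11 of 14 FoxO target genes reached 10 CPM in 1 or both groups. Upstream, 2 of 11 were 2-fold higher and 2 lower, where 26.3% of all genes were higher and 14.3% lower. Sgk1, a kinase that phosphorylates FoxO3, had 79.7 CPM in OHCs against 968.5 CPM in cIHCs, a log2 ratio of 3.60, and had reads in 18 of 32 and 67 of 67 cells. Igf1r, the IGF1 receptor, had 456.9 and 83.6 CPM, a ratio of -2.45. Akt1 and Pik3cb had ratios of 1.06 and -1.62. Among the targets 4 of 11 were 2-fold higher and 4 lower, beside the same 26.3% and 14.3%, with a median ratio of -0.77 (0.25 over all genes). Of these 11, 5 passed 10 CPM in 1 group only and so had to differ to some degree. Catalase (Cat) had 1 count in OHCs and 39.6 CPM in cIHCs from 33 cells. This is a log2 ratio of 13.23 (10.75 to 18.53). Sesn3, a stress-induced inhibitor of mTORC1 signalling, had a ratio of 2.80, the ubiquitin ligase gene Trim63 -2.96 and the PI3K inhibitor gene Pik3ip1 -2.63. The targets at 10 CPM or more thus lay on both sides of 0.

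Foxk2 and Foxk1, which bind DNA at genes of metabolism and autophagy, were both higher in cIHCs. Foxk2 had medians of 0 CPM in OHCs (highest cell 104.1) and 8.12 CPM in cIHCs (highest cell 210.0), and reads in 10 of 32 and 51 of 67 cells. Its log2 ratio of 1.15 was 0.90 relative to all genes and 1.27 and 1.23 among cells with Y-linked and Xist reads. Foxk1 stayed under 10 CPM, at 1.45 CPM in OHCs against 7.19 CPM in cIHCs; the log2 ratio was 2.31 (2.15 to 2.47), with 52.6% of the OHC counts in 1 cell.

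Foxj2 and Foxj3, closely related activators, went opposite ways. Foxj2 had 21.2 and 9.22 CPM, a log2 ratio of -1.20, with medians of 0 CPM in both groups and reads in 15 of 32 OHCs and 28 of 67 cIHCs. Its ratio lay between -2.28 and -1.20 under the alternatives that gave one. Foxj3 had 28.5 and 51.1 CPM, a ratio of 0.84 that was positive under the alternatives run, with reads in 19 of 32 and 51 of 67 cells. Foxj1, the master factor of motile cilia, had 0.843 CPM in OHCs against 5.13 CPM in cIHCs, with reads in 6 of 32 and 26 of 67 cells.

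Of the 37 Fox genes under 10 CPM in both groups, 14 had no read and 23 had reads in 1 or more cells. Foxn4, known from retinal progenitors, had 7.61 CPM in OHCs from 4 cells and 6 counts in cIHCs, with 76.6% of the OHC counts in 1 cell. Foxr2 had 7.23 CPM in OHCs, all from 1 cell, and 0.0882 CPM in cIHCs from 2 cells. Foxf1 had 6.17 CPM from 3 OHCs and 0.235 CPM from 2 cIHCs, so in both the difference rests on the counts of few cells. Foxc1, a mesenchymal factor, had its 653 OHC counts in the 1 OHC with the most reads of other cell types, and 2.97 CPM in cIHCs from 9 cells. Foxc2 and Foxd1, also known from mesenchyme, had no read.

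**Figure D3:**
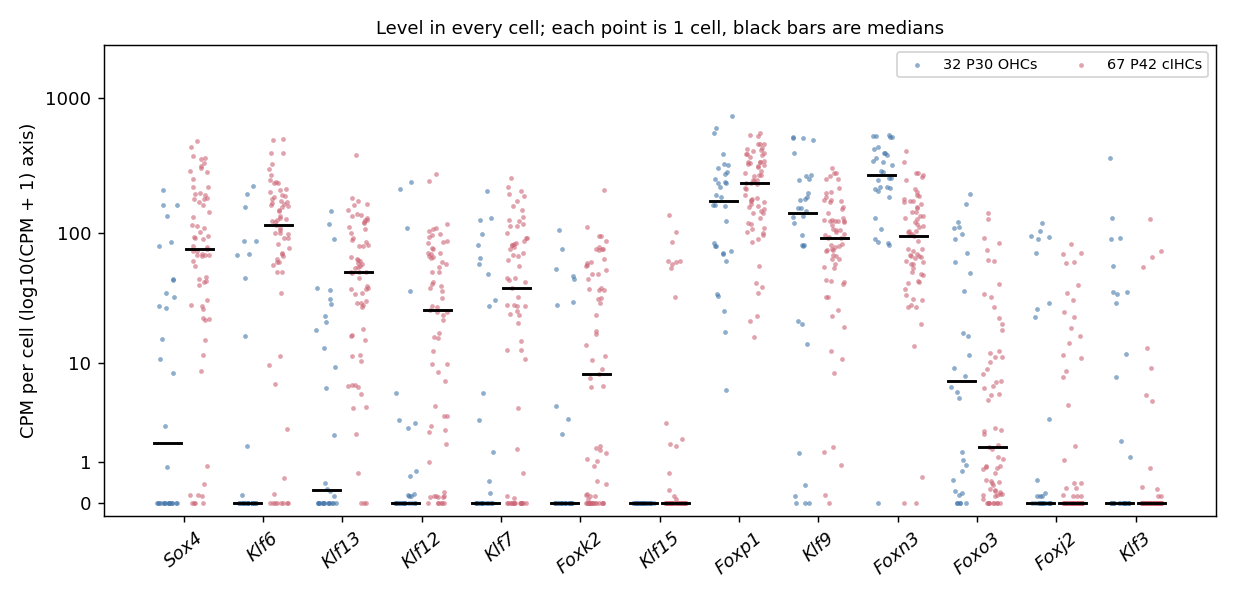
CPM of 13 members in every cell (y axis, log10(CPM + 1) scale; blue, 32 OHCs; red, 67 cIHCs; black bars, medians). Medians of Sox4, Klf6, Klf13, Klf12, Klf7, Foxk2 and Foxp1 are higher in cIHCs, and those of Foxn3, Klf9 and Foxo3 are lower. Medians of Klf15, Foxj2 and Klf3 are 0 in both groups. The ranges of the groups overlap in every gene shown. Klf15 has no OHC read, and most cIHCs have none either.

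Relatives and partners of the 3 families lay mostly within 2-fold. None of the 4 Sp genes with 10 CPM or more differed by 2-fold. Sp1, 1 of these 4, had 50.2 and 30.7 CPM. Of the TCF/LEF list, Tcf7 and Ctnnb1 passed 10 CPM and lay within 2-fold. All 12 corepressor genes found in the table passed, with 2 higher and 1 lower, beside 26.3% and 14.3% of all genes. Tle2, a Groucho corepressor, had 11.7 and 65.3 CPM, a log2 ratio of 2.48, and its relative Tle3 had 43.1 and 17.3 CPM, a ratio of -1.32. Sin3a, which Klf repressors recruit, had a ratio of 1.30, but 1 OHC held 73.8% of its OHC counts. Ctbp2 had 88.1 and 166.6 CPM, a ratio of 0.92.

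A median of 8 members reached 10 CPM in an OHC (range 4 to 14) and 11 in a cIHC (6 to 17). All genes at that level had medians of 4067 and 6073, so the members made up a median of 0.191% of them in OHCs and 0.175% in cIHCs. More members and more genes of all kinds were thus counted per cIHC.

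**Figure D4:**
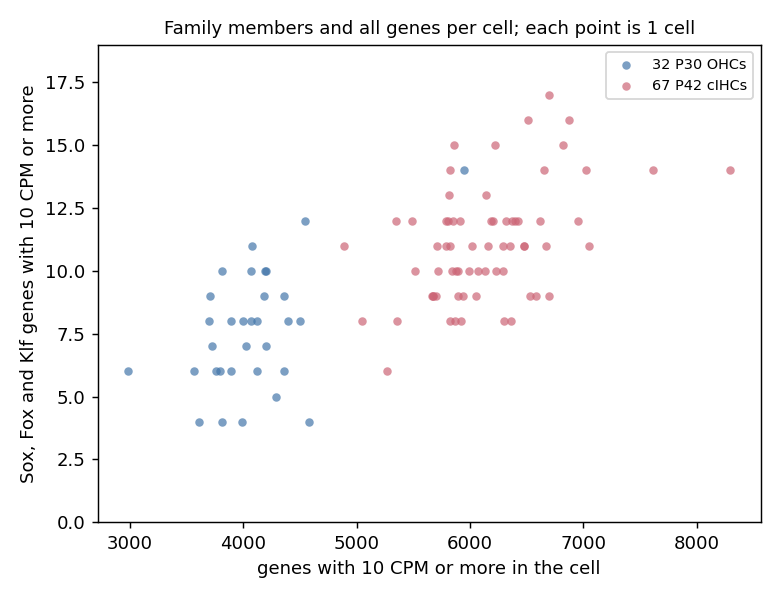
Number of Sox, Fox and Klf genes with 10 CPM or more in a cell (y axis) against the number of all genes at that level (x axis); each point is 1 cell, blue for OHCs and red for cIHCs. The cIHCs lie further up and to the right, with medians of 8 and 11 members and of 4067 and 6073 genes.

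Across cells, most correlations between members were weak. Over the 67 cIHCs the median Spearman correlation of 210 pairs of members was 0.0028, with values from -0.28 to 0.36; over the 32 OHCs it was 0.030 for 190 pairs, from -0.43 (Foxj3 and Klf9) to 0.58 (Klf5 and Klf6). Values of a cell share 1 library and its depth. Against Tbx2 in cIHCs the highest value was that of Sox4, 0.33, and the lowest that of Klf3, -0.24. The sum of 9 genes of the response to dissociation had medians of 1482 CPM per cell in cIHCs and 930.7 CPM in OHCs. Of the 8 that reached 10 CPM, 4 were 2-fold higher in cIHCs, 1 was lower and 3 lay within 2-fold. Over all genes 26.3% were higher and 14.3% lower, and 2 of the 8 passed 10 CPM in 1 group only. The correlation of the 9-gene sum with Klf6 was 0.17 over cIHCs and -0.48 over OHCs, and with Sox4 0.30 and 0.22. The part of these 9 genes in the levels of Klf6 and Sox4 was not tested.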

How the data were processed

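Counts came as a single deposited table of whole numbers, genes by cells; that these are raw counts was judged from the values. The submitters' processing notes name HISAT2 2.2.1, StringTie 2.2.1, featureCounts 2.0.1 and mm10; annotation, strand setting and filters are not given in the sources used here. Cochleae were treated with enzymes, per the labels' protocols, and cDNA was made with the Smart-Seq HT kit. Columns were assigned by title, 0 belong to no sample, and all 99 cells were used (0 identical columns, no doublet caller, as cells were picked singly). Some members are not reported here by name, in text or figures.

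Counts were summed per group (242054710 in OHCs, 544012348 in cIHCs) and divided by the total to give CPM. A sum of 0 was set to 3 counts over the group; no ratio was formed where both sums were at or under 3. A call is 2-fold with 10 CPM or more in 1 or both groups; members past 10 CPM are named, as are those concentrated in 1 cell or known from other cell types, and up to 4 called genes of each related list. Of the listed genes, 1 had no row. Intervals are exact at 95% (Poisson, conditional binomial, Clopper-Pearson). Thinning to 5770000 reads left 29 OHCs and 66 cIHCs. Exon lengths and overlaps come from GENCODE M21 (GRCm38, the same build as mm10). Members and lists were chosen with earlier results of these data known. The ratio and interval steps were checked on simulated pooled Poisson counts. These hold no spread between cells, so the check says nothing on genes whose counts sit mostly in 1 cell. The CCAAT box, the gene pairs compared within cells and the alternative without cells with reads of other cell types were chosen after the data were seen. Tools were scipy 1.17.1, matplotlib 3.10.9, pandas 2.3.3 and numpy 2.4.6 on Python 3.11.15, and edgeR 4.0.16 in R 4.3.3 for TMM factors (0.936 and 1.07).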

Additional observations from a re-analysis of the deposited data

How the results depend on the processing

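No paired analysis was possible because a number in a title is only a running number of a cell and no test was made. The count of 7 members at least 2-fold higher became 3 with TMM factors and 3 with median-of-ratios factors (Klf15 then lies under 10 CPM), 18 with no filter on level, 4 at 50 CPM and 2 at 4-fold. The count of 6 lower became 1 when cells were summarised by their median (where 6 of 9 members with a ratio were higher), 15 with no filter, 1 at 50 CPM and 2 at 4-fold. Among cells with Y-linked reads 8 members were higher and 4 lower, of which 6 and 3 (Foxj2, Foxn3, Klf2) were called in the main setting. Among cells with Xist reads 8 were higher and 7 lower, of which 5 and 2 (Foxj2, Klf3) were. Of the lower genes only Foxj2 was thus called in both sets. The median log2 ratio of 0.16 became 0.12 when cells were averaged, 6.24 by the median over cells (OHC medians of 0 are set to the floor), 0.94 without the highest cell of each gene, -0.11 with TMM, -0.12 with median-of-ratios factors, 0.042 without the most abundant genes, 0.076 without mitochondrial genes, 0.31 and -0.60 among cells with Y-linked and Xist reads, 0.17 after thinning, 0.14 with no filter, 0.94 at 50 CPM and 0.18 with the mean of both levels at 10 CPM. Leaving out the 7 OHCs and 9 cIHCs with 100 CPM or more of other cell types' markers, an alternative added after seeing the data, gave 7 higher, 6 lower and a median of 0.091; of the 7 higher, 6 were the same genes, with Foxj3 in place of Klf7. Among members called 2-fold higher or lower, ratios changed direction for Foxo3 (0.33 and 1.599 among cells with Y-linked and Xist reads), Klf2 (4.07) and Klf7 (-0.57). For Klf2 and Klf7 this was among cells with Xist reads, where 4 OHCs remain. For Klf2, 1 cIHC also held 83.6% of the cIHC counts. Among members within 2-fold, Sox6, Sox12, Klf5 and Klf11 were among those whose ratio changed sign under an alternative. The causes of these changes were not tested. Bringing cells to equal depth left 6 higher and 6 lower.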
